A study of Mus musculus with 28 samples.

Results

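The keratin genes were taken as every gene of the deposited count table named Krt followed by digits alone, which gave 50 members among 28244 genes. Of these, 26 encode type I keratins and 24 type II keratins. Another 5 keratin rows carry a letter or suffix in their name (Krt6a, Krt6b, Krt33a, Krt33b and the pseudogene Krt8-ps) and were kept apart. No expression value entered the choice of members. The levels were read in all 28 polyA RNA-seq samples of mouse cells, which fall into 11 groups.

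Cells labelled Tail and Lung (n = 2 each) were compared with lines of peripheral neural stem cells (pNSCs) and with brain neural stem cells (NSCs). One experiment held Tail-pNSC, Lung-pNSC and Brain-NSC (n = 2 each), which the study's legends assign to Nes-GFP reporter mice although the sample titles name no reporter. A second held Sox2-GFP brain NSCs and Sox2-GFP lung pNSCs (n = 3 each), from mice in which GFP is read out from Sox2. The last used Wnt1Cre-mTmG mice, in which Wnt1-driven Cre switches cells of the neural crest lineage from Tomato to GFP, and held brain NSCs, Tail pNSCs and dorsal root ganglion (DRG) pNSCs (n = 3 each). It was set beside DRG NCSCs (n = 3), neural crest stem cells grown from adult wild-type ganglia. The study reports that the tail and DRG pNSCs of the Wnt1Cre-mTmG mice kept Tomato and lacked GFP, so they did not carry the crest label. All samples carry the strain label C57BL/6, whereas the study's methods describe crosses of the reporter mice with mice of mixed CD1 and C3H background. By the study's text, the tail and DRG pNSCs came from postnatal mice, the lung pNSCs of the Nes-GFP experiment from adult lung and the Sox2-GFP lung pNSCs from postnatal lung, so the reporter and the age of the lung pNSCs cannot be told apart. No label gives a sort or culture stage for the Tail and Lung cells. The pNSC lines each began as a manually picked cluster grown with EGF and bFGF, so a line can be 1 clone. Nothing in the labels says that replicates came from separate animals, and p-values then measure only the spread between these samples.

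Keratins are the intermediate filament proteins of epithelial cells. Each filament is built from pairs of 1 type I and 1 type II chain, and each kind of epithelium has its own pairs: Krt5 with Krt14 in the basal epidermis, Krt1 with Krt10 in the layers above, Krt8 with Krt18 in simple epithelia such as airway and alveolar lining, and large sets of their own in the inner root sheath and shaft of the hair. Neural stem cells build their intermediate filaments from nestin and vimentin instead.

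Libraries held 9808246 to 22637031 counts. Levels are given as CPM (written cpm), counts scaled to library size with TMM over all samples, and differences as log2 fold changes from edgeR's quasi-likelihood test with Benjamini-Hochberg adjustment over all genes tested. An SE is the size of the difference divided by the square root of the test's F value. Such an SE can lie under the counting error where a difference is large, so the largest differences are given without one. A gene was called when its adjusted p was under 0.05 and its log2 fold change at least 1 in size. Sample pairs within a group differed by 1.09 to 2.82 times the sampling variance per gene, except for pairs with DRG NCSC replicate 3, at 16.8 and 21.0, and the DRG NCSC calls, their differences and the summed level are therefore also given without that library.

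The summed level of the 50 keratin genes divided the 11 groups into 3 ranges. Tail cells held 17316 and 17082 cpm, 1.72% of their scaled reads. Lung cells held 1092 and 1069 cpm, so that the mean in tail cells was 15.9-fold that in lung cells. The 24 samples of cultured lines lay between 8.75 and 25.9 cpm, and no sample of one range reached the next. In RNA from whole cell populations, fewer cells of a type and less RNA per cell cannot be told apart.

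**Figure D1:**
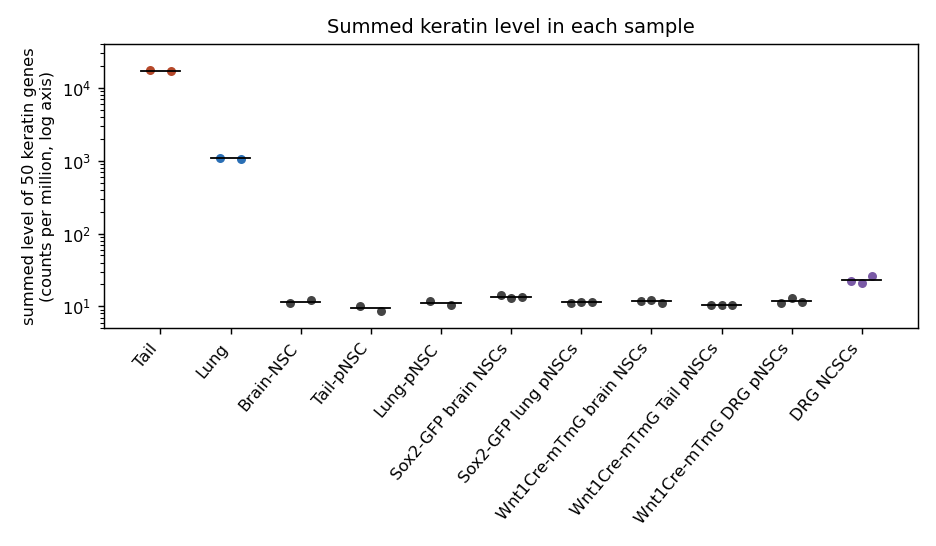
Summed level of the 50 keratin genes in cpm on a log axis (vertical) for each sample, by group (horizontal); points are samples and bars are group means. The Tail samples sit at 17316 and 17082, the Lung samples at 1092 and 1069, and all cultured samples between 8.75 and 25.9.

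In tail cells 41 of the 50 members had a mean of at least 1 cpm and 25 a mean of at least 100 cpm. Krt76, a keratin of the palate, was the 1 member without a count there. By role list, the inner root sheath and companion layer keratins gave 29.7% ± 0.152 of the summed level (SD, n = 2), the basal epidermal keratins 27.2% ± 0.175 and the hair shaft keratins 24.2% ± 0.173. The suprabasal epidermal keratins gave 8.54%, and the simple epithelial keratins 0.650%. The label under which these genes were grouped, epidermis in tail cells, was therefore incomplete, since the 2 hair follicle lists also took a large part of the keratin reads. Per kb of exon the same 3 shares were 30.1%, 28.6% and 25.5%, in the order named. Krt33a and Krt33b, which the naming rule leaves out and which are given below with the hair shaft keratins, averaged 700 and 460 cpm. All these shares and their order therefore hold for the 50 members alone.

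Among the basal epidermal keratins, Krt5 held 2448 and 2407 cpm in the 2 tail samples. Its type I partner Krt14 held 1456 and 1416 cpm. Krt15, found in basal cells and in the follicle's stem cell region, held 832 and 806 cpm. The lung samples had 3 and 7 counts of Krt5, 5 and 4 of Krt14 and 10 and 11 of Krt15, so tail and lung cells did not overlap for any of the 3. Of the suprabasal keratins, Krt10 held 663 and 648 cpm and its type II partner Krt1 held 631 in both samples. Krt2, made late in the maturing epidermis, held 183 and 177 cpm. Krt9, typical of footpad skin, stood at 28 and 22 counts, and Krt77 at 6 and 18.

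The injury and hyperproliferation list has 2 members. Krt17, which is also a keratin of the follicle's outer sheath, held 926 and 888 cpm, while Krt16 held 14.2 and 13.7 cpm. Krt6a, a partner of both that the naming rule does not match, held 24.4 and 22.8 cpm, and Krt6b had 1 count in each tail sample. Because Krt6a and Krt6b are close copies, how their reads were split is uncertain.

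The inner root sheath is the layer that moulds the growing hair. Its type II keratin Krt71 held 2191 and 2189 cpm in the tail samples, and the type I keratin Krt25 held 1146 and 1143 cpm. Krt27, another type I keratin of this layer, held 642 and 622 cpm, and Krt73 held 471 and 457 cpm. Those 4 were without a count in both lung samples. Krt28 stood at 234 and 240 cpm. Krt72 stood at 161 and 167 cpm. Krt26 stood at 98.7 and 92.6 cpm. Krt75, the keratin of the companion layer around the sheath, held 166 and 167 cpm. Krt74, another type II keratin of the sheath, held 12.6 and 11.1 cpm and is annotated as a pseudogene in the mouse.

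The hair shaft keratins, the hard keratins of cortex and cuticle, were all 13 above 5 cpm in tail cells. Krt35, made early in the forming shaft, held 782 and 783 cpm. Krt87 held 753 and 760 cpm, and Krt83 held 698 and 684 cpm. The cortex keratin Krt31 held 631 and 622 cpm, and its neighbour Krt34 held 221 and 222 cpm. Krt81 and Krt86, type II keratins of the cortex, were at 379 cpm in both samples and at 241 and 243 cpm. The cuticle keratins Krt32 and Krt82 stood at 187 and 185 cpm and at 165 and 166 cpm. Krt36 held 66.4 and 69.4 cpm. Krt40, Krt39 and Krt84 stood at 29.0 and 25.1 cpm, 16.4 and 15.7 cpm, and 8.19 and 6.08 cpm. Outside the naming rule, Krt33a held 691 and 710 cpm and Krt33b 452 and 469 cpm, again as near-identical copies whose reads could have been divided between them.

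The remaining tail keratins belonged to other lists. Krt79, a keratin of the upper follicle and sebaceous duct, held 631 and 606 cpm and carried most of the mucosal and corneal list. Krt80, found in many epithelia, held 114 and 119 cpm. Of the simple epithelial keratins, Krt7 stood at 48.5 and 45.1 cpm, Krt23 at 30.1 and 30.2 cpm, Krt8 at 19.0 and 19.5 cpm, Krt19 at 12.7 and 11.6 cpm and Krt18 at 1.91 and 2.69 cpm. Krt20, which marks Merkel cells of the skin and intestinal lining, stood at 19 and 20 counts.

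Lung cells used another set. The simple epithelial list gave 76.8% ± 0.446 of their summed keratin level (SD, n = 2) and the mucosal and corneal list 21.7% ± 0.510, most of it reads of Krt80 and Krt79. Those 2 genes have long annotated exons, and per kb the shares were 87.3% ± 0.189 and 10.9% ± 0.308. Krt7 held 368 and 354 cpm, and Krt19 held 215 and 207 cpm. The pair Krt8 and Krt18 held 132 and 131 cpm, and 102 and 103 cpm. Krt80 held 188 cpm in both samples, Krt79 42.5 and 44.7 cpm, and Krt23 26.0 and 23.3 cpm. Beyond those, only the hair shaft keratin Krt87, at 7.64 and 6.28 cpm, passed 5 cpm. Among all 50 members, 23 had no count in either lung sample and 29 never passed 3 counts.

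**Figure D2:**
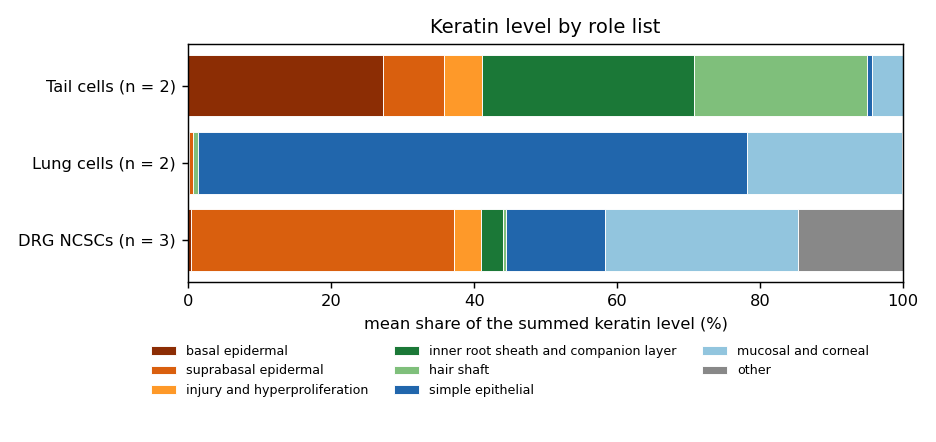
Mean share of the summed level of the 50 keratin genes (cpm, not per kb) in percent (horizontal) taken by each role list (colours) in Tail cells, Lung cells and DRG NCSCs (vertical). Inner root sheath, basal epidermal and hair shaft keratins divide the Tail bar at 29.7%, 27.2% and 24.2%, and simple epithelial keratins take 76.8% of the Lung bar.

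Levels of different keratins can be compared only per length. The length used was that of all annotated exons of a gene merged, which can exceed the transcript made. On the scale of cpm per kb of exon the order in tail cells began with Krt5 at 1105 ± 13.0 (SD, n = 2), Krt71 at 1002 ± 0.658 and Krt14 at 817 ± 16.0. Krt17 at 585 ± 17.3 and Krt25 at 575 ± 1.20 came next, and the samples of these 2 overlapped. Krt15, Krt27, Krt31, Krt83 and Krt87 followed, from 464 down to 332 cpm per kb. In lung cells Krt19 led at 114 ± 3.06 cpm per kb, ahead of Krt18 at 71.3 ± 0.399, Krt8 at 67.2 ± 0.286 and Krt7 at 51.2 ± 1.43, with no overlap between neighbours. Krt80 followed at 29.4 and Krt23 at 15.8 cpm per kb. Krt7, first in plain cpm in lung cells, has a merged length of 7049 bp, and its place here depends on that length.

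Partner chains were compared on the same scale. The merged exons of Krt1 and Krt10 are 4415 and 2114 bp long, and ratios and shares per kb depend on such lengths. Per kb, the ratio of Krt5 to Krt14 in tail cells was 1.35 ± 0.0106 (SD, n = 2), that of Krt71 to Krt25 was 1.74, and that of Krt1 to Krt10 was 0.461 ± 0.00733. The ratio of Krt8 to Krt18 was 0.942 ± 0.00927 in lung cells and 6.31 ± 1.39 in tail cells, where Krt18 rested on 34 and 42 counts. Over the 50 members, which leave out the type I keratins Krt33a and Krt33b, type II keratins made up 47.1% ± 0.205 of the tail total per kb. In lung cells they made up 44.1% ± 0.199. In plain cpm those shares were 54.0% and 68.0%.

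Tail and lung cells were compared to see which keratins separate skin from lung. Of the 50 members 43 passed the filter on low counts, 35 were called higher in tail cells and 6 lower. Over all 16948 genes tested, 20.5% were called higher and 22.9% lower. The 35 members were the 3 basal, 4 suprabasal, 2 injury, 9 inner root sheath and companion layer and 13 hair shaft keratins tested, with Krt79 and Krt4 from the mucosal and corneal list, Krt20 and Krt90. Their largest adjusted p was 0.000104, for Krt4. A member counted only in tail cells passed the filter through those cells and had to differ, so the count adds nothing to the levels above. The median fitted difference of the tested members, with genes at 0 in lung cells set to their bound, was 9.17 on the log2 scale, and that of all genes tested was 0.01.

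For keratins at 0 in both lung samples a fold can be given only as a bound against 3 counts per library. Krt71 was at least 12648-fold higher in tail cells, Krt25 at least 6612-fold, Krt35 at least 4518-fold and Krt27 at least 3652-fold. With counts on both sides, Krt5 was higher by 13.05 (log2), Krt17 by 12.60 and Krt14 by 12.45. The lung samples held 3 and 7, 4 and 1, and 5 and 4 counts of these, so the values are imprecise. Krt10, which lung cells did hold at 4.74 and 4.37 cpm, was higher by 7.21, and Krt87 by 6.80.

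The 6 members lower in tail cells were 4 simple epithelial keratins, Krt78 and Krt222. The difference was −5.45 (log2) for Krt18. It was −4.07 ± 0.07 (log2 ± SE) for Krt19, −2.90 ± 0.05 for Krt7, −2.73 ± 0.07 for Krt8 and −1.27 ± 0.41 for Krt78. Krt222 was close to both thresholds, at −1.04 ± 0.46 with an adjusted p of 0.0282, and its call was lost under DESeq2 (adjusted p = 0.142) and without any 1 of the 4 libraries. The other 2 tested members had differences under the fold threshold: Krt80 at −0.65 ± 0.05 and Krt23 at 0.33 ± 0.10. Both were present in either tissue. By DESeq2, Krt9, Krt36, Krt78 and Krt90 also lost their calls, at adjusted p = 0.370, 0.0585, 0.0576 and 0.144.

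**Figure D3:**
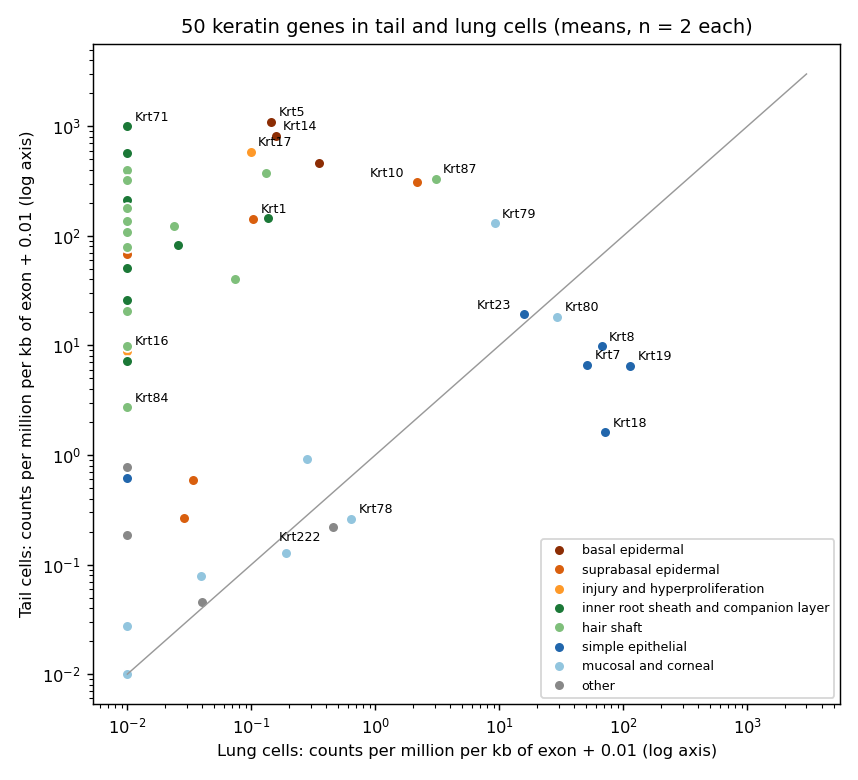
Mean level of each of the 50 keratin genes in Tail cells (vertical) against Lung cells (horizontal), in cpm per kb of exon with 0.01 added, both axes logarithmic; colours are role lists and the grey line marks equal levels. Krt5 and Krt71 lie at the top left, Krt23 and Krt80 near the line, and Krt7, Krt8, Krt18 and Krt19 below it.

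Markers of the cell types in each sample moved with these keratins, and their part in the keratin values was not tested. Of the 32 epidermal partner genes (cornified envelope, desmosome and hemidesmosome genes and their regulators) 31 were tested and 28 were higher in tail cells, with a summed level of 8414 to 8465 cpm against 1424 to 1490 in lung cells. Trp63, the regulator of stratified epithelium, averaged 232 cpm in tail cells and 1.02 in lung cells, and Dsp, the desmosomal anchor of keratin filaments, 1827 and 130. Of 9 hair follicle genes 8 were higher in tail cells, among them Tchh of the inner root sheath at 1665 against 8.44 cpm and Hoxc13 at 79.9 against 0. All 15 lung epithelial genes were lower in tail cells, with the club cell gene Scgb1a1 at 14317 and the surfactant gene Sftpc at 10571 cpm in lung cells, and 6 of the 15 had no count in tail cells. Of 10 mesothelial genes 7 were lower in tail cells. Msln averaged 52.4 cpm and Upk3b 52.8 in lung cells, and since mesothelium also makes simple keratins its share of Krt7, Krt8, Krt18 and Krt19 cannot be told apart from that of airway and alveolar cells. Among 12 general epithelial genes 5 were higher and 3 lower in tail cells. The lists of other cells divided as well: 7 of 8 fibroblast and 5 of 5 Schwann and neural crest genes were higher in tail cells, 5 of 5 leukocyte and 4 of 5 endothelial genes were lower, and 1 of 5 neural stem cell genes was higher and 2 lower.

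All 50 members lie in 2 clusters of the GRCm38 genome. On chromosome 11, 25 members span 1037 kb (chr11:99232761-100269871), and on chromosome 15, 25 members span 685 kb (chr15:101347444-102032027). Every type I member except Krt18 is on chromosome 11, and Krt18 lies at the end of the type II cluster beside Krt8. Runs of neighbouring keratins with at least 5 cpm in tail cells and under 1 cpm in lung cells were then listed, so these levels define the runs. Krt25, Krt26, Krt27 and Krt28 are neighbours within 59.4 kb of chromosome 11 and held 95.7 to 1145 cpm in tail cells and at most 0.204 cpm in lung cells. Further along the same chromosome, a run of 9 keratin genes from Krt39 to Krt36, 7 of them members, held 16.1 to 782 cpm in tail cells and at most 0.108 in lung cells. On chromosome 15 a run from Krt81 to Krt82 held 7.13 to 691 cpm in tail cells, and a run from Krt6a to Krt1 held 11.8 to 2427 cpm, with at most 0.412 cpm in lung cells in either.

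Lung keratins were not gathered in 1 block. Krt19 lay on chromosome 11 between Krt15 and Krt9, which were higher in tail cells. Krt80 and Krt7 opened the chromosome 15 cluster, and Krt8 and Krt18 closed it.

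**Figure D4:**
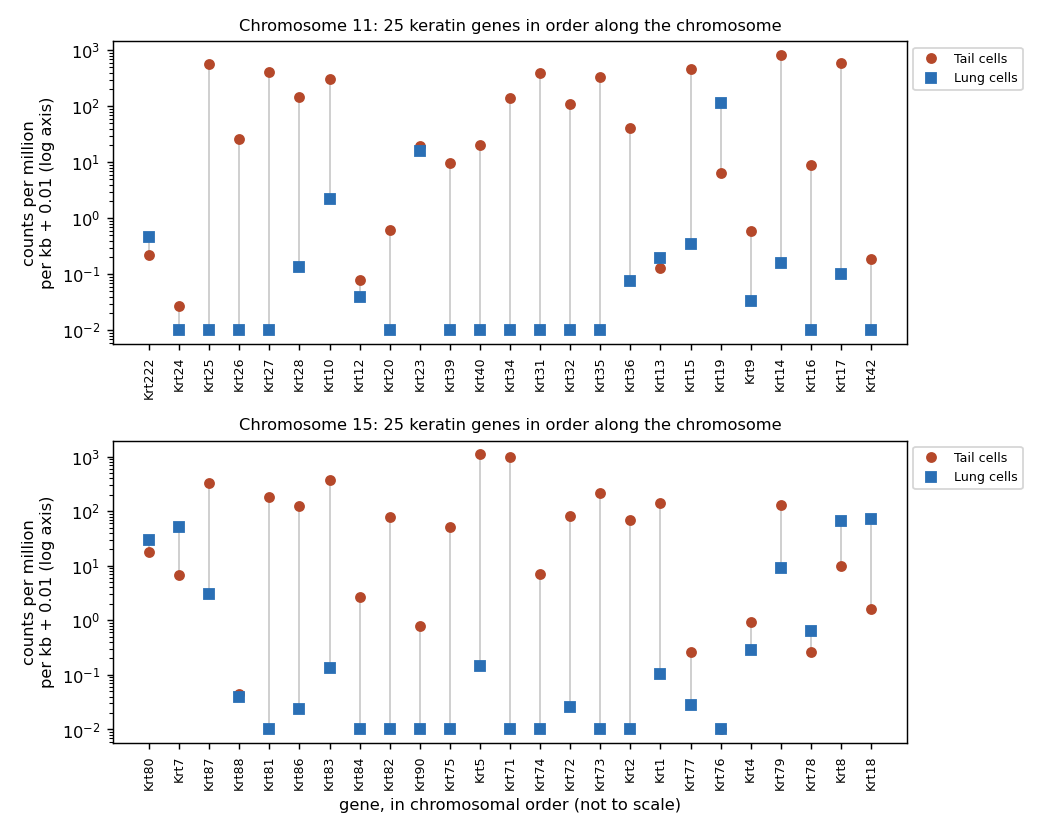
Mean level in cpm per kb of exon with 0.01 added, on a log axis (vertical), of the 25 keratin genes on chromosome 11 (top) and the 25 on chromosome 15 (bottom), in order along the chromosome (horizontal, not to scale); circles are Tail cells and squares Lung cells. Runs such as Krt25 to Krt28 and Krt81 to Krt82 are high in Tail cells alone, and Krt19, Krt7, Krt8 and Krt18 are higher in Lung cells.

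The sequences just before the starts of keratins from different runs, of the simple pair Krt8 and Krt18 and of Krt10 and Krt28, which had at least 5 counts in every neural sample, are shown. RefSeq's promoter table for GRCm38.p6 held an entry for 35 of the 50 members. Each line gives the 100 bases before the RefSeq start, 5′ to 3′ on the gene's strand, and capitals mark TATAAA or ATAAAA, letters of the TATA box at which the transcription machinery assembles, where they fall in the last 50 bases.
Krt5 (chr15:101712906-101713005, minus strand): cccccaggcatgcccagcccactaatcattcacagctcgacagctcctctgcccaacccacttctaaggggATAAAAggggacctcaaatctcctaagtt
Krt71 (chr15:101743098-101743197, minus strand): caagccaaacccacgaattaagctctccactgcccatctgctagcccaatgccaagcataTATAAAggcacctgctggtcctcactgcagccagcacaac
Krt25 (chr11:99322952-99323051, minus strand): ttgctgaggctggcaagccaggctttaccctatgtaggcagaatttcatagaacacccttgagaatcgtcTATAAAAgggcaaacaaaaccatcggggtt
Krt31 (chr11:100050552-100050651, minus strand): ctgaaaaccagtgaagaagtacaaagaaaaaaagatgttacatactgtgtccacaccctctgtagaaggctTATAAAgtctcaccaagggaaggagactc
Krt10 (chr11:99389365-99389464, minus strand): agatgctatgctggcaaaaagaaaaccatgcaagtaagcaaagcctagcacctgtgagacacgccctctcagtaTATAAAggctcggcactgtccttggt
Krt28 (chr11:99374904-99375003, minus strand): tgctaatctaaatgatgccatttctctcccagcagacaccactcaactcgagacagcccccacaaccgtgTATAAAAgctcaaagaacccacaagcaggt
Krt8 (chr15:102004343-102004442, minus strand): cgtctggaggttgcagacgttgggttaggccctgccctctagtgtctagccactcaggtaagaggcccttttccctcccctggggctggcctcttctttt
Krt18 (chr15:102028116-102028215, plus strand): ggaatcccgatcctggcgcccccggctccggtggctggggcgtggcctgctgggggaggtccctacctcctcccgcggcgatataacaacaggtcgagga

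Within the 50 bases before the start, on either strand, TATAAA was found in 14 of the 35 members (40.0%) and in 3.50% of all 32851 promoters of the table. The letters ATAAAA, which overlap with TATAAA wherever TATAAAA occurs, were found in 15 of 35 (42.9%) and in 4.02%. One or the other was found in 22 of 35 members (62.9%) and in 6.06% of all promoters. Krt5, Krt71, Krt25, Krt31, Krt10 and Krt28 held one between 40 and 26 bases before the start. In Krt8 and Krt18 neither was found in this window, and the RefSeq starts of these 2 lie 140 and 36 bases from the starts annotated by GENCODE. A match of letters is a description and does not show a working site.

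Tail-pNSC lines were compared with tail cells to see what remained of the tissue's keratins. Their summed level was 10.2 and 8.75 cpm, 1815-fold below that of tail cells. Among the 50 members 44 had no count in either line. Those with counts were Krt10 (162 in each line), Krt28 (10 and 5), Krt222 (1 and 3), Krt7 (4 and 0) and Krt71 and Krt83 (0 and 1 each). All 43 members tested were called lower in Tail-pNSC and none higher, with 32.6% of all genes tested called lower and 14.1% higher. The largest adjusted p of the 43 by edgeR was 0.00076, for Krt222. DESeq2 called 41, and Krt9 and Krt90 lost their calls (adjusted p = 0.149 and 0.128). Most of the 43 passed the filter through tail cells alone.

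Krt71, with 39048 and 34223 counts in tail cells, had 0 and 1 count in Tail-pNSC. Krt5 was at least 14911-fold lower in Tail-pNSC, and Krt14 at least 8820-fold. Krt25 was at least 7031-fold lower and Krt17 at least 5571-fold. Krt10 differed by −6.32 (log2) and was the only member above 5 cpm in these lines. Beside them, 29 of the 31 epidermal partner genes tested, 8 of 9 hair follicle genes, 12 of 12 general epithelial genes and 8 of 8 fibroblast genes were lower in Tail-pNSC, and 5 of 5 neural stem cell genes were higher. The general epithelial list summed to 0.916 to 0.980 cpm in Tail-pNSC and to 1069 to 1075 cpm in tail cells. The part of these cell types in the keratin differences was not tested.

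Lung-pNSC and Sox2-GFP lung pNSCs were each compared with the same 2 Lung samples, so the 2 comparisons share them. In Lung-pNSC the summed keratin level was 11.8 and 10.5 cpm, 96.8-fold below lung cells. In Sox2-GFP lung pNSCs it was 11.3, 11.5 and 11.5 cpm, 94.7-fold below. Of 43 members tested in the first, 18 were lower and 2 higher, with 34.9% of all genes lower and 20.2% higher. Of 15 tested in the second, 13 were lower and 2 higher, with 34.9% and 21.3% of all genes. Most of the members called lower passed the filter through lung cells or, in the first comparison, tail cells. The shares of members and of all genes therefore cannot be set against each other.

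Krt19, with 3994 and 3360 counts in lung cells, had none in any of the 5 lung pNSC samples. It was at least 1363-fold lower in Lung-pNSC and at least 1533-fold lower in Sox2-GFP lung pNSCs. For Krt80 the bounds were 1215-fold and 1366-fold, for Krt8 850-fold and 956-fold, and for Krt18 662-fold and 745-fold. Krt7 kept 0 and 1 count in Lung-pNSC and 0, 3 and 2 counts in Sox2-GFP lung pNSCs, against 6833 and 5740 in lung cells. From these counts its ratio in the Sox2-GFP lines was 4730-fold (95% interval 2026 to 14569, counting error only). Krt79, Krt23 and Krt87 had no count in any lung pNSC sample. Of 12 general epithelial and 15 lung epithelial genes all were lower in both kinds of lung pNSC. The members called with under 12 counts in each lung sample were Krt1, Krt4, Krt5, Krt14, Krt15, Krt17, Krt36 and Krt83 in Lung-pNSC, and among those without a count in Lung-pNSC the largest bound was 3.73-fold, for Krt4, while for Krt17 and Krt36 the counts were too few for a bound above 1. Krt36 lost its call under DESeq2 (adjusted p = 0.488) and without Lung replicate 1 or either Lung-pNSC replicate, and Krt17 without Lung replicate 1 (edgeR adjusted p = 0.136). When Lung-pNSC was fitted with lung cells alone, the filter kept 12 members and all 12 were called, 10 lower and 2 higher. Those 10 passed the filter through lung cells.

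The 2 members higher in lung pNSCs were Krt10 and Krt28. Krt10 stood at 4.74 and 4.37 cpm in lung cells, at 10.5 and 9.13 cpm in Lung-pNSC and at 9.98, 9.90 and 10.1 cpm in Sox2-GFP lung pNSCs. The groups did not overlap, and the differences were 1.06 ± 0.13 and 1.11 ± 0.13 (log2 ± SE), with edgeR adjusted p = 7.08e-16 and 3.68e-17. Both lie at the fold threshold. In Lung-pNSC the call ended under DESeq2 and with median-of-ratios size factors (0.97 in each), with a mean count of at least 100 (0.91) and without Lung-pNSC replicate 1 (0.95), and in Sox2-GFP lung pNSCs it ended with a mean count of at least 100 (0.94). Krt28 stood at 3 and 4 counts in lung cells, 21 and 14 in Lung-pNSC and 25, 20 and 19 in Sox2-GFP lung pNSCs, with differences of 2.07 ± 0.53 and 2.22 ± 0.52 (adjusted p = 0.000129 and 2.17e-05 by edgeR). The median of all genes tested lay at −0.15 and −0.12 (log2) in these 2 comparisons, in the opposite direction.

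Krt10 was the main keratin of every neural line. Over the 21 samples of brain NSCs and pNSCs it had 93 to 249 counts, or 8.25 to 12.4 cpm, and made up 70.5% to 94.2% of the summed keratin level. Brain NSC samples held 9.39 to 12.4 cpm and pNSC samples 8.25 to 10.5 cpm, so the 2 kinds overlapped. Krt10 is a suprabasal epidermal keratin, and its partner Krt1 stayed at 0 to 16 counts in the same samples. The antisense gene Gm11940 overlaps Krt10 on the opposite strand and has no row in the table. Since the library kit and counting are not described as stranded, reads from the 2 cannot be told apart. In all, 10 members overlap a gene on the opposite strand, among them Krt5, Krt7, Krt8 and Krt80. The same limit holds for those. Of the 32 epidermal partner genes, 9 had counts in every one of these 21 samples and 8 in none. The cornified envelope gene Lor, picked out after its values were seen, was among the 9 and averaged 3.46 to 13.9 cpm by group. Tail cells averaged 7.14 cpm of Lor and lung cells 0.419, so its level in these lines was not below that of skin in every group. The cornified envelope and epidermal genes Krtdap, Ivl, Flg and Flg2 were among the 8 without a count.

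Among the other members, Krt28 had 5 to 25 counts and Krt222 1 to 11 counts per neural line. Krt1, Krt7 and Krt73 passed 3 counts in at least 1 sample. The remaining 44 members never did, and 28 of them had no count in any of the 21 samples.

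**Figure D5:**
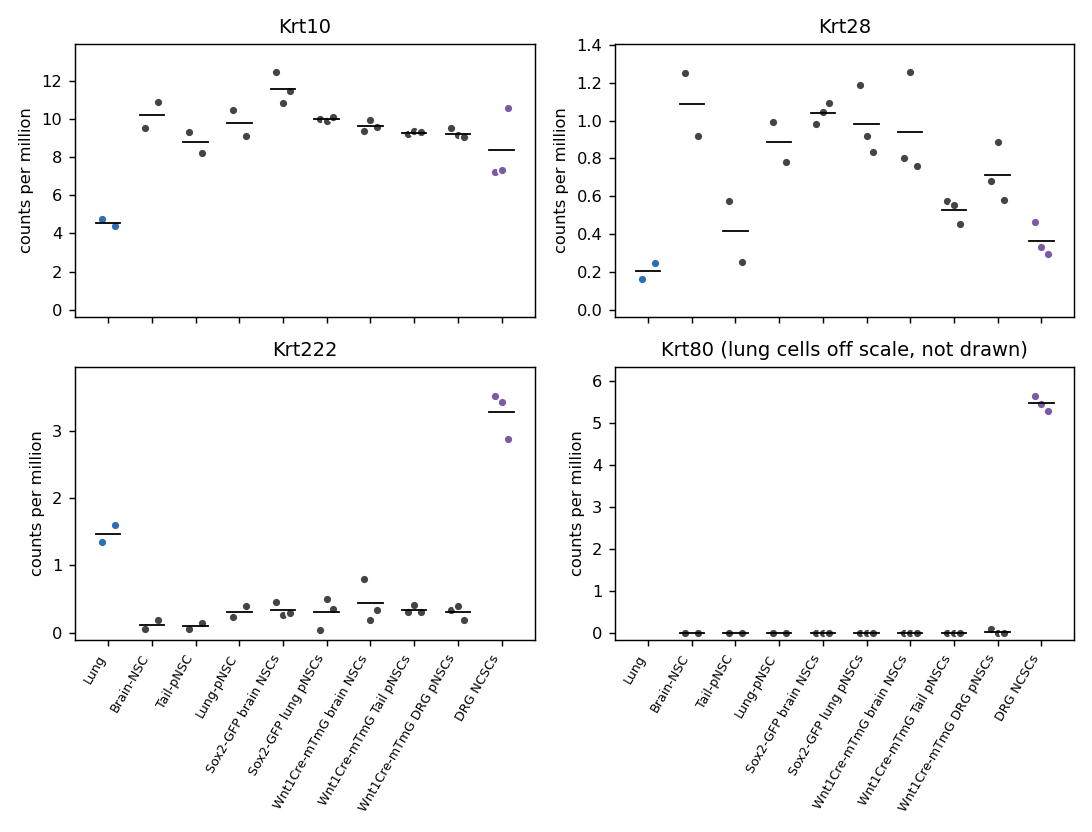
Level in cpm (vertical) of Krt10, Krt28, Krt222 and Krt80 in each sample of Lung cells and of the cultured groups (horizontal); points are samples and bars group means, and Lung cells are left out of the Krt80 panel, where they hold 188. Krt10 is at 4.37 to 4.74 in Lung cells and at 8.25 to 12.4 in brain NSCs and pNSCs, and Krt222 and Krt80 are highest among the cultured groups in DRG NCSCs.

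Each pNSC group was then compared with the brain NSCs of its own experiment, to see whether the tissue of origin left keratins behind. For Tail-pNSC against Brain-NSC, 1 of 43 members tested was higher and 2 lower, with 4.31% of all genes higher and 6.59% lower. These shares cannot be set against each other, since 46 of the 50 members were at or under 3 counts in both groups and most of the 43 passed the filter through tail or lung cells. The higher 1 was Krt7, which rested on 4 counts in a single line against 0 and was lost under DESeq2 (adjusted p = 0.0642), without Tail-pNSC replicate 1 and without either Brain-NSC library. Krt28 was lower, with a difference of −1.42 ± 0.42 (log2 ± SE, edgeR adjusted p = 0.00174), at 10 and 5 counts against 25 and 19, and lost its call without Tail-pNSC replicate 2. Krt73 was at 0 in Tail-pNSC and at 3 and 1 counts in Brain-NSC, which is at the counting floor and gives no fold. Krt10 differed by −0.24 ± 0.11 and did not pass the fold threshold.

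For Lung-pNSC against Brain-NSC none of 43 members was higher and 1 was lower, with 4.56% of all genes higher and 4.15% lower. Here 47 of the 50 members were at or under 3 counts in both groups, so few of the 43 could have been called. The lower 1 was again Krt73, at 0 against the same 3 and 1 counts. By edgeR 1 member had an unadjusted p under 0.05, and DESeq2 called 0.

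In the Wnt1Cre-mTmG experiment 5 members passed the filter. Neither Tail pNSCs nor DRG pNSCs had a member called against brain NSCs by edgeR or by DESeq2. Of all genes, 9.16% were higher and 9.05% lower for Tail pNSCs, and 3.12% and 6.41% for DRG pNSCs. Of the 50 members, 46 were at or under 3 counts in both groups for Tail pNSCs and 45 for DRG pNSCs. Krt19, Krt80 and Krt222 passed the filter through DRG NCSCs, so the lack of calls cannot be set against these shares. At an unadjusted p under 0.05, edgeR gave 1 member for Tail pNSCs and 0 for DRG pNSCs. That member was Krt28, at 13, 12 and 9 counts in Tail pNSCs and 9, 13 and 9 in the shallower brain NSC libraries, a difference of −0.81 ± 0.32 (adjusted p = 0.0387 by edgeR) that stayed under the fold threshold. Krt73 had 3, 14 and 5 counts in DRG pNSCs and 3, 1 and 0 in brain NSCs, and did not pass the filter. Krt10 did not pass the test in either comparison, at −0.06 ± 0.13 (log2 ± SE) for Tail pNSCs and −0.06 ± 0.14 for DRG pNSCs.

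In the Sox2-GFP experiment 15 members were tested, 1 was higher in lung pNSCs than in brain NSCs and 1 lower, with 5.76% of all genes higher and 9.99% lower. Here too 46 of the 50 members were at or under 3 counts in both groups. Most of the 15 passed the filter through lung cells, so these shares cannot be set against each other. Krt1 was lower, at 0, 0 and 1 counts against 7, 16 and 10, a ratio of 37.5-fold (95% interval 6.28 to 1526, counting error only). Krt7 was called higher on 0, 3 and 2 counts against 0, which is at the counting floor, and lost its call without Sox2-GFP brain NSC replicate 2 (edgeR adjusted p = 0.0609) and without Sox2-GFP lung pNSC replicate 2 (0.0985). Krt10 differed by −0.18 ± 0.09 and was not called.

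The pNSC effects themselves were compared between experiments. For tail pNSCs against brain NSCs, the Wnt1Cre-mTmG effect minus the Nes-GFP effect was called for none of 43 members by edgeR or DESeq2, with 1 at an unadjusted p under 0.05, while 8.96% of all genes were called higher and 7.05% lower. For lung pNSCs against brain NSCs, the Sox2-GFP effect minus the Nes-GFP effect was called for none of 43 by either tool, with 0 at an unadjusted p under 0.05, and 5.89% and 8.24% of all genes. These zeros say little about keratins, because 44 of the 50 members never passed 3 counts in any of the 21 brain NSC and pNSC samples and most of the 43 entered through tail or lung cells.

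DRG NCSCs differed from the neural lines in their keratins. Their summed level was 21.95, 20.7 and 25.9 cpm, above every brain NSC and pNSC sample, and 28 of the 50 members had a count in at least 1 of the 3 samples. Against Wnt1Cre-mTmG brain NSCs, 3 of 5 members tested were higher and 1 lower, with 22.1% of all genes higher and 14.8% lower. The 3 higher members, Krt80, Krt19 and Krt222, passed the filter through DRG NCSCs, so these shares cannot be set against each other. Krt80 had 122, 115 and 90 counts in DRG NCSCs and none in brain NSCs, at least 20.2-fold higher. Krt19 had 55, 42 and 66 counts against none, at least 10.4-fold higher. Krt222, a keratin-related gene, had 76, 72 and 49 counts against 9, 2 and 4, a difference of 2.86 ± 0.31 (log2 ± SE, edgeR adjusted p = 1.48e-07). Krt28 was lower, with a difference of −1.31 ± 0.35 (adjusted p = 0.0024 by edgeR). Without DRG NCSC replicate 3 the same comparison gave 5 calls, 3 higher and 2 lower, with differences of 2.93 for Krt222 (edgeR adjusted p = 2.55e-14) and −1.20 for Krt28 (0.0108). Krt80 and Krt19 remained called higher, and the mean summed level was 21.3 cpm without that library and 22.8 cpm with it.

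Other keratins were present in DRG NCSCs at levels too low to pass the filter. Krt16 had 19, 15 and 10 counts, Krt79 had 7, 7 and 4, and Krt76 had 5, 5 and 3, and none of the 3 genes had a count in any brain NSC or pNSC sample. Krt18 and Krt7 came from replicate 3, at 1, 0 and 9 counts and at 0, 0 and 6. By role list, the suprabasal list gave 36.8% ± 4.21 of the level (SD, n = 3), nearly all Krt10, and the mucosal and corneal list 27.0% ± 4.11, mainly reads of Krt80. Per kb the shares were 44.9% ± 3.54 and 12.2% ± 2.58. Krt10 itself stood at 7.23, 7.31 and 10.6 cpm, with replicate 3 the highest.

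Markers of other cell types were read in the same DRG NCSC samples, and their part in the keratin values was not tested. The 12 general epithelial genes summed to 4.37 to 5.63 cpm, with Cdh1 at 3.74 and Epcam at 0.535, against 763 to 788 in lung cells, and the 1 of them tested was higher than in brain NSCs. Of the epidermal partner genes 12 of 14 tested were higher than in brain NSCs and 2 lower. The list summed to 711 to 793 cpm, with Itgb4 at 49.4 cpm and Sprr1a, a cornified envelope gene also known from injured neurons, at 43.0. Among the brain NSC and pNSC groups the same list was highest in Wnt1Cre-mTmG Tail pNSCs, at 609 to 613 cpm. It was lowest there in Wnt1Cre-mTmG brain NSCs, at 200 to 210 cpm. All 5 Schwann and neural crest genes, 7 of 8 fibroblast genes and 4 of 4 leukocyte genes tested were also higher in DRG NCSCs. Their summed levels were 3307 to 3430, 7083 to 7204 and 568 to 610 cpm.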

How the data were processed

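PolyA RNA of 28 mouse samples in 11 groups (2 or 3 samples each) was sequenced single-end. The authors aligned reads to GRCm38 with HISAT2 and deposited raw counts per gene from htseq-count; whether counting used strand is not given in the sources used here. The counts were fitted per experiment with edgeR 4.0.16 in R 4.3.3 (filterByExpr with a minimum count of 10 and minimum total of 15, TMM scaling, quasi-likelihood test, two-sided, Benjamini-Hochberg over all genes tested), and the comparisons of effects over all 28 samples. DESeq2 1.42.0 was an alternative. On simulated counts for the tail and lung comparison, 200 of 200 changed genes were recovered, with 0 false calls. False calls numbered 1 for Wnt1Cre-mTmG Tail pNSCs against brain NSCs and 0 for Sox2-GFP lung pNSCs against brain NSCs. For the tail effect between experiments they numbered 3. Only genes with ample counts were changed, all by the same large fold and with little spread. The simulation therefore does not cover members with few counts. Figures were drawn with matplotlib 3.10.9.

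Levels are TMM-scaled cpm computed from the deposited counts. A level of 3 counts per library was taken as the floor for bounds, and intervals (95%, exact) and floors cover counting error only. Positions and exon lengths came from the GENCODE annotation of GRCm38, with all annotated exons of a gene merged for its length. Libraries held 9808246 to 22637031 counts, which limits precision for members with few counts. Members averaging at least 5 cpm in a group were named with their values, as were the 4 with the largest differences per comparison. Krt6a, Krt6b, Krt33a, Krt33b and Krt8-ps were kept apart. The keratins, role lists and marker lists were chosen with earlier results of these data known. Role lists and the marker lists (epidermal partner, hair follicle, lung epithelial, mesothelial, general epithelial, fibroblast, leukocyte, endothelial, neural stem cell, Schwann and neural crest) come from general knowledge. Alternatives were another scaling, filter, tool or set of samples, a replicate block and leaving out each replicate.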

Additional observations from a re-analysis of the deposited data

How the results depend on the processing

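Of 163 recomputed counts of called keratins, 135 stayed within 1.5 times the reported count. No keratin difference among those recomputed changed sign where it was called in the reported or the alternative fit. Differences called in neither were not checked for sign. When only the groups compared were fitted, calls were 12 for Lung-pNSC against Lung, 1 for Tail-pNSC against Brain-NSC, 0 for Lung-pNSC against Brain-NSC and 0 for Sox2-GFP lung pNSCs against their brain NSCs, where fewer members passed the filter. DESeq2 gave 1 for Tail-pNSC and 0 for Lung-pNSC against Brain-NSC. The 1 call for Lung-pNSC against Brain-NSC also became 0 with upper-quartile scaling, with median-of-ratios size factors and with no filter on low counts. With no filter, 1 member was called for Wnt1Cre-mTmG Tail pNSCs, 1 for DRG pNSCs and 9 for DRG NCSCs against brain NSCs. Without a fold threshold, 1 was called for Wnt1Cre-mTmG Tail pNSCs. With a mean count of at least 100, calls were 0 of 1 member tested for DRG NCSCs, where the reported fit tested 5. In the Sox2-GFP fit 8 members were then tested instead of 15, with 1 called against brain NSCs and 7 against Lung. The cause of the other changes was not tested. Leaving out 1 replicate gave 1 to 2 calls for Tail-pNSC and 0 to 1 for Lung-pNSC against Brain-NSC, 1 to 2 for Sox2-GFP lung pNSCs against brain NSCs, and 0 to 1 for the tail effect between experiments. It gave 40 to 41 for tail against lung cells and 5 to 6 for DRG NCSCs. The summed level was 15552 cpm in tail and 1043 cpm in lung cells with total count scaling, and 18630 and 1198 cpm with median-of-ratios size factors.

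Equal replicate numbers did not pair the samples: deviations of same-numbered samples correlated at −0.0193 to 0.031. With a replicate block, 40 members were called for tail against lung cells, 43 for Tail-pNSC against tail cells, 20 for Lung-pNSC against lung cells, 2 for Tail-pNSC and 0 for Lung-pNSC against Brain-NSC, 4 for DRG NCSCs, 2 for Sox2-GFP lung pNSCs against brain NSCs and 15 against lung cells, and 0 in the other comparisons.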
